A study of Homo sapiens with 4 samples.

Results

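SPIB peaks on the short arm of chromosome 12 (12p) are described here for lung cancer cells held in suspension and for the same cells left attached. A peak was placed on 12p where its summit lay on chromosome 12 before a boundary midway between 35 and 36 Mb (hg38), and the arm was chosen by its number of deposited peaks. The suspended list held 271 such peaks of 9024, and the attached list held 12 of 462. The rest of chromosome 12, called 12q below, held 280 suspended and 9 attached peaks. The peaks came from chromatin immunoprecipitation with sequencing (ChIP-seq) in H1703, an established human lung squamous carcinoma line that was made to overexpress SPIB in every group. The antibody was anti-FLAG M2, and each condition (suspended, attached) had 1 ChIP library and 1 input library of sonicated DNA without immunoprecipitation. The treatment text of all 4 libraries names 24 h of suspension, and the condition label tells the groups apart. With 1 library per group there is no replicate check, so no p-value is given and all intervals cover counting error only.

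SPIB belongs to the ETS transcription factors and acts in the development of B lymphocytes and plasmacytoid dendritic cells. ETS proteins bind DNA at a core of GGAA. The distal part of 12p is gene-rich, with housekeeping genes such as GAPDH and CHD4. Nearer the centromere, but still before 14 Mb, lie families of tissue-restricted genes. Among them are C-type lectin receptors of natural killer and myeloid cells, bitter taste receptors and salivary proline-rich proteins.

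The ChIP libraries held 20766909 filtered tags in suspended and 21108364 in attached cells, and the inputs 21437074 and 15878452. Because the arm was chosen by its peak number, its density is given as a description. In suspended cells 12p held 7.63 peaks per Mb (exact Poisson 95% interval 6.75 to 8.60), against 2.86 per Mb on 12q (2.54 to 3.22) and 2.91 per Mb over all chromosomes. Thus 3.003% of the suspended list lay on an arm that makes up 1.15% of the length counted. In attached cells 12p held 0.338 peaks per Mb (0.175 to 0.590), against 0.0921 on 12q (0.0421 to 0.175). The ratio of 12p to 12q was 2.66 (2.25 to 3.16) in suspended and 3.67 (1.42 to 9.86) in attached cells. The attached ratio rests on 12 and 9 peaks and was 2.06 in the upper scores, with 3 and 4 peaks. Protein-coding genes were about as dense on both arms, with 8.11 per Mb on 12p and 7.53 on 12q, and per 100 such genes there were 94.1 suspended peaks on 12p and 38.04 on 12q.

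Sequence under the peaks is shown first for gene starts. RefSeq promoter windows (GRCh38.p14, from 250 bases before a gene start to 50 after it) held 25 suspended summits on 12p in 28 windows, since windows of neighbouring starts overlap. Of these windows, 6 lay outside every annotated gene over the 250 bases before the start, and those bases are printed because the summit lay in or within 40 bases of them, read 5′ to 3′ on the strand of the gene, with the ETS core in capitals on either strand (GGAA or TTCC). They belong to TNFRSF1A (chr12:6342077-6342326, minus strand), the main receptor for tumor necrosis factor; MLF2 (chr12:6753142-6753391, minus); LRRC23 (chr12:6904572-6904821, plus), a cilium protein; LPCAT3 (chr12:7018477-7018726, minus), a phospholipid remodelling enzyme; APOLD1 (chr12:12725667-12725916, plus), an endothelial gene; and GRIN2B (chr12:13982135-13982384, minus), a glutamate receptor subunit of neurons.
TNFRSF1A: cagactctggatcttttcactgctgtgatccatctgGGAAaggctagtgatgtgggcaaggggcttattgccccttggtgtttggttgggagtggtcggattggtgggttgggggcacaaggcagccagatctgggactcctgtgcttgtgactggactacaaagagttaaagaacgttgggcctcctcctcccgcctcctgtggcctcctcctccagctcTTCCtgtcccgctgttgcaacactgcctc
MLF2: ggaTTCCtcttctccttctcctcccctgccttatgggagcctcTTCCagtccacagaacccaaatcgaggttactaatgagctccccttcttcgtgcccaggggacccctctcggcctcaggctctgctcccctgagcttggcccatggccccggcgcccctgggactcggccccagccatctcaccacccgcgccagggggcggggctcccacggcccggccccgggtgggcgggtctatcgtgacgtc
LRRC23: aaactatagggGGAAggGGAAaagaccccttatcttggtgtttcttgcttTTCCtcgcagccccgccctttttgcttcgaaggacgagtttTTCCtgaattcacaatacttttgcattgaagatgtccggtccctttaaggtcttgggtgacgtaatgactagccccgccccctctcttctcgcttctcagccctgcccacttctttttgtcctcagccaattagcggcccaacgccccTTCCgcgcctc
LPCAT3: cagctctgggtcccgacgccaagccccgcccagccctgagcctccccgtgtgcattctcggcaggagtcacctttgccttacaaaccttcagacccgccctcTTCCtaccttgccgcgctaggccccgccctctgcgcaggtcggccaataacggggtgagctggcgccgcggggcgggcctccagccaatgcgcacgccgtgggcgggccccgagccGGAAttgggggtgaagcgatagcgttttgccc
APOLD1: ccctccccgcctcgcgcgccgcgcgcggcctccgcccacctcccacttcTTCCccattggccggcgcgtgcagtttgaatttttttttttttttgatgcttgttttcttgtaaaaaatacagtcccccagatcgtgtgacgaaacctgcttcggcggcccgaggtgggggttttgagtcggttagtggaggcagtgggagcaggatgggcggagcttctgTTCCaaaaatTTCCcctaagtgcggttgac
GRIN2B: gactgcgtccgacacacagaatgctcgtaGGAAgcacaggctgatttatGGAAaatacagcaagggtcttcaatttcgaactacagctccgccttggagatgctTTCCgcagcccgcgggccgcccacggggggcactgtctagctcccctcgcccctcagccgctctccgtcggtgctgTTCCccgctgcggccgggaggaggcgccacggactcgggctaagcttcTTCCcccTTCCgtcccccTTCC

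The core is so short that it says little: GGAA was found on at least 1 strand in the windows of all 25 summits on 12p, and in 95.4% of the 34943 promoter windows searched. Both longer ETS sequences contain it. Each summit was counted once, with a match in any of its windows. CCGGAAGT was found at 2 of the 25 summits (8%, exact binomial 95% interval 0.984 to 26), at 3 of 25 on 12q, at 9.1% of all 813 such summits and in 4.11% of all windows. GAGGAAGT, the form preferred by SPIB and its relative PU.1, was found at 0 of the 25 (upper bound 13.7%), at 4 of 25 on 12q, at 7.63% of all such summits and in 2.59% of all windows. GGGCGG, the core bound by SP1-like factors, was found at 19 of the 25 (76%), against 76.1% of all such summits and 44.9% of all windows. The AP-1 sequence TGACTCA was at 0 of the 25, at 2.71% of all such summits and in 4.96% of all windows. Of the parts of the site of the repressor REST, TTCAGCACC was at 0 of the 25. It was at 2.09% of all such summits and in 0.378% of all windows. GGACAG, another part, was at 4 of the 25 (16%), at 26.3% of all such summits and in 20.6% of all windows. All sequences were searched on both strands, and these matches describe letters, not binding.

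The 12p peaks were wide, rich in tags and low in fold. The authors' fold is the height of ChIP tags over the local background, mostly taken from the input. The median suspended peak on 12p was 408 bp wide with 28 tags and a fold of 6.23, against 222.5 bp, 12 tags and a fold of 10.3 on 12q. The interquartile ranges of fold did not overlap, at 5.14 to 8.17 on 12p and 8.27 to 12.4 on 12q. The medians over all assembled chromosomes lay between them, at 252 bp, 15 tags and a fold of 9.1. The scores, which combine tags and background, differed less, with medians of 60.8 on 12p and 57.9 on 12q, and the authors' FDR had medians of 3.11% and 4.0%. The same order was seen in attached cells, with medians of 466 bp, 32.5 tags and a fold of 9.42 on 12p, against 209 bp, 12 tags and a fold of 19.2 on 12q. Peaks covered 155.58 kb of 12p and 71.4 kb of 12q in suspended cells, and 5.83 and 2.06 kb in attached cells.

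In suspended cells the order of the arms in density depended on the fold limit. Over the whole suspended list, 39.9% of peaks had a fold of at least 10, but on 12p it was 26 of 271 (9.59%) and on 12q 148 of 280 (52.9%). Kept to a fold of at least 10, 12p held 0.732 peaks per Mb (0.478 to 1.07) and 12q held 1.51 (1.28 to 1.78), so the order of the arms was turned round. The arms met between a fold of at least 7, where the ratio of 12p to 12q was 1.19, and at least 8, where it was 0.884. In the attached list, where 84.6% of all peaks had a fold of at least 10, the counts were 6 on 12p and 8 on 12q, or 0.169 (0.0620 to 0.368) and 0.0819 (0.0353 to 0.161) per Mb. There 12p kept the higher value, at a ratio of 2.06, on intervals that overlap.

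**Figure D1:**
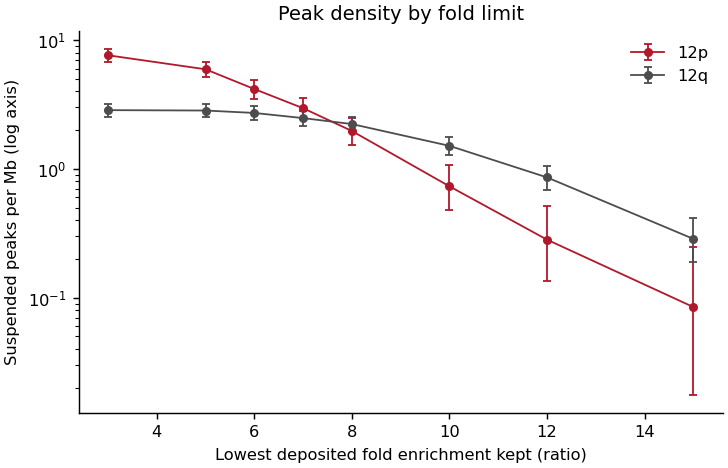
Suspended SPIB peaks per Mb on 12p (red) and 12q (grey) against the lowest deposited fold kept; bars are exact Poisson 95% intervals and the vertical axis is logarithmic. 12p starts at 7.63 per Mb, crosses 12q between a fold of 7 and 8, and lies at 0.732 against 1.51 per Mb at a fold of 10.

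The local background that each peak was called against was also higher on 12p. It can be recovered from the deposited tag count and score, because the score is a Poisson p-value of the tags given that background. In suspended cells its median was 22.8 input tags per kb on 12p (interquartile range 16.1 to 31.9), against 10.5 on 12q (7.92 to 13.7) and 12.6 over all chromosomes. The genome-wide value, which the caller uses as its lowest background, is 6.39 tags per kb. On 12p 1 suspended peak came out below it, at 3.68, namely the 87 bp peak of highest fold, and it is kept in the medians. In attached cells the medians were 17.0 on 12p and 6.30 on 12q, with a genome-wide value of 4.89. Peaks at gene ends sat on a higher background than others, so the arms were also set side by side within a class of position. For suspended peaks between genes the medians were 15.4 on 12p and 8.33 on 12q, inside genes 19.1 and 8.91, and at gene ends 31.8 and 13.6. Of the 35 windows of 1 Mb on 12p, 31 had a median background above 9.69 per kb, the median over the 12q windows. The arm with the denser peaks thus had the higher background and, as the background is the divisor of the fold, the lower fold. Within 12p the background was 26.2 from 0 to 14 Mb and 15.5 beyond, but single windows did not keep this order. The window from 27 to 28 Mb had a median of 37.8 with 7 peaks, and that from 6 to 7 Mb 32.9 with 55. The part of the background in the number of peaks was not tested. Backgrounds are scaled within each pair of libraries, so the suspended and attached values are not set against each other.

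Peaks that sat on like backgrounds were close in fold on both arms. From 10 to 20 input tags per kb, the median fold was 7.99 for 99 suspended peaks on 12p and 8.94 for 136 on 12q, with 15 and 16 tags. From 20 to 30 it was 5.99 for 68 peaks and 6.24 for 15. At 30 or more, 12p had 88 peaks with a median fold of 5.01, 953 bp and 73 tags, and 12q had 0. Below 10, the count was 16 on 12p and 129 on 12q. Counted per Mb of the whole arm, peaks of the band from 10 to 20 lay at 2.79 per Mb on 12p and 1.39 on 12q. The length of sequence with such a background on each arm is not known, so these densities do not separate peak number from background.

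**Figure D2:**
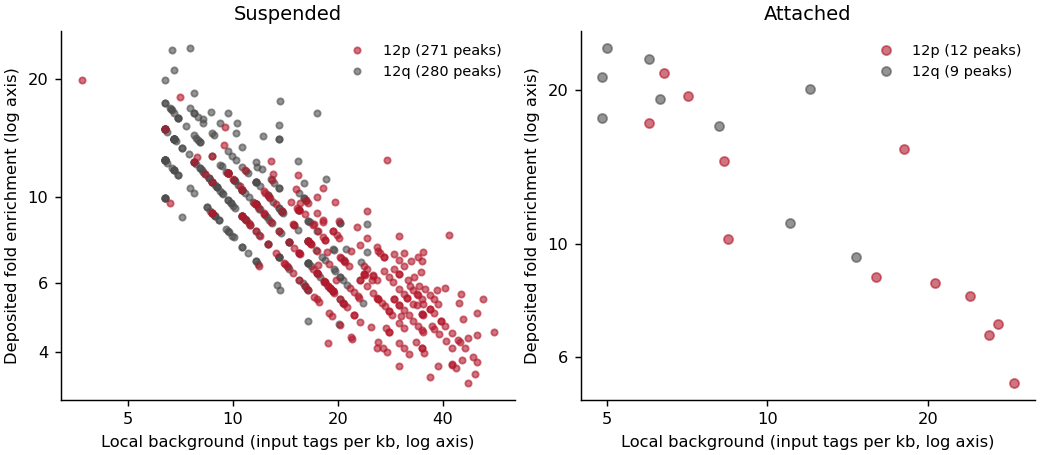
Deposited fold against recovered local background, each point a peak on chromosome 12 (12p red, 12q grey), with suspended peaks on the left and attached peaks on the right; both axes are logarithmic. The 12p peaks extend to 56.2 input tags per kb in suspended cells, where 12q ends at 24.2, and fold falls with background because the background is its divisor.

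Along the arm, windows with more genes tended to hold more peaks, with exceptions. Every one of the 35 full windows of 1 Mb on 12p held at least 1 suspended peak, with a median of 4, whereas 27 of the 98 windows on 12q held none and the median was 2. The window from 6 to 7 Mb stood apart with 55 peaks, 29 of them at a gene end, among 40 protein-coding genes. The next were the window from 0 to 1 Mb with 21 peaks, and those from 2 to 3 and 7 to 8 Mb with 15 each. The fullest 12q window held 13. From 0 to 14 Mb the arm held 12.5 peaks per Mb (10.7 to 14.5) with a median fold of 5.81 on a background of 26.2 per kb. From 14 Mb to the boundary it held 4.46 peaks per Mb (3.62 to 5.45) with a median fold of 8.19 on a background of 15.5. Per 100 protein-coding genes the stretches were alike, with 92.11 and 97.96 peaks. Across windows, the Spearman correlation of peak number with gene number was 0.69 on 12p (35 windows) and 0.68 on 12q (98 windows). Exceptions were the window from 10 to 11 Mb, with 6 peaks among 30 protein-coding genes, and that from 0 to 1 Mb, with 21 among 10. The windows come from 1 library, and this is a description. At the boundary of the arm, the last suspended summit inside lay at 35432364 with a fold of 19.87, and the first outside was the single peak of the window from 37 to 38 Mb, 186 bp wide with a fold of 14.67.

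**Figure D3:**
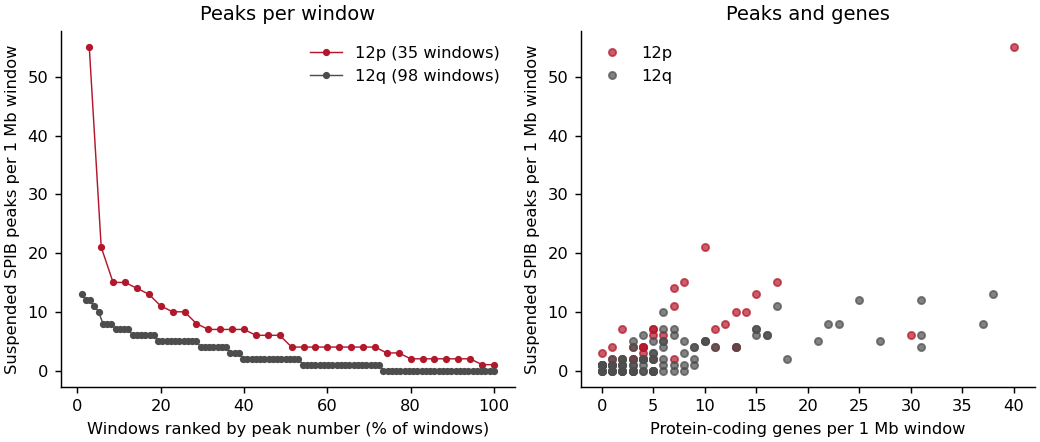
Suspended peaks per 1 Mb window of chromosome 12, ranked from the fullest window (left panel) and plotted against protein-coding genes in the window (right panel), with 12p in red (35 windows) and 12q in grey (98 windows). The 12p window with 55 peaks and 40 genes lies far above the rest, and all 12p windows hold at least 1 peak.

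The arms were alike in where peaks lay relative to genes. On 12p, 104 of 271 suspended summits (38.4%, 32.6 to 44.5) lay within 1 kb of an end of a gene, against 109 of 280 (38.9%, 33.2 to 44.9) on 12q. A further 45.4% lay inside genes on 12p and 44.6% on 12q, and 16.2% and 16.4% between genes. Peaks near gene ends were mostly near starts. Among protein-coding genes longer than 2 kb with a known strand, 65 of 194 on 12p (33.5%) had a suspended summit within 1 kb of the start, and 6 (3.09%) within 1 kb of the other end. On 12q these were 71 of 537 (13.2%) and 8 (1.49%).

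**Figure D4:**
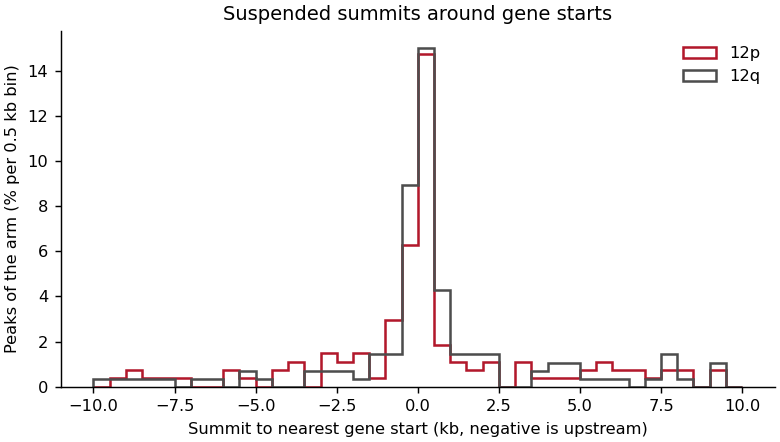
Signed distance from suspended summits to the nearest RefSeq gene start, in bins of 0.5 kb, as a percent of all peaks of the arm (12p red, 12q grey); summits beyond 10 kb are not drawn. Both arms peak in the bin just after the start, and 25.8% of 12p and 29.6% of 12q summits lie within 1 kb of a start.

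About every other protein-coding gene of the arm carried a peak. A suspended peak lay in or within 5 kb of 145 of 288 protein-coding genes on 12p (50.3%, 44.4 to 56.3), where the share over all protein-coding genes was 28.6% and on 12q 31.0%. Within 1 kb of a gene end it was 85 of 288 (29.5%), where the share over all was 13.8% and on 12q 13.3%. In attached cells the counts were 12 of 288 (4.17%) in the gene or within 5 kb, where the share over all was 1.86%, and 5 at a gene end, where it was 0.809%. Of the genes with a promoter window, 67 of 208 (32.2%) had a suspended summit within 1 kb of a start, where the share over all was 14.7%, and 4 of 208 (1.92%) had an attached one, where it was 0.77%. The share of genes with a peak follows the density of peaks that chose the arm, and nothing further is read from it. Among noncoding and other genes, 105 of 500 on 12p (21%) and 94 of 1275 on 12q (7.37%) had a suspended peak inside or up to 5 kb away, where the share over all was 7.89%. Of the 145 protein-coding genes, 73 had a single suspended peak, 43 had 2, and 9 had 4 or more.

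Of the 10 peaks with most tags, 8 lay between 6 and 7 Mb. The highest, 195 tags (exact Poisson 95% interval 168.6 to 224.4) in 2019 bp, lay in ATN1, which encodes a transcriptional corepressor, 326 bp from an end of the noncoding gene LOC124902868, with a fold of 5.34. It was followed by a peak before GAPDH, the glycolytic enzyme, at 6533171 to 6535018, with 189 tags (163.0 to 218.0) and a fold of 5.46. Then came CHD4, the helicase of the NuRD chromatin complex, with 162 tags, a site inside TNFRSF1A with 152, and a site shared by CD27 and TAPBPL with 150. CCND2, which encodes cyclin D2, had 144 tags at a fold of 5.63, and MLF2 and SPSB2 had 143 each. A second site in ATN1 had 136, and the start of ETV6, an ETS-family repressor, had 130 at a fold of 4.10. All 10 were 1450 bp or wider, and their folds lay between 3.34 and 6.42.

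None of these 10 was among the 10 of highest fold (0 in common). The highest fold, 19.87, was at 35432322 to 35432408 near the end of the arm, 1182099 bp from the nearest annotated gene, with 8 tags (3.5 to 15.8). Its recovered background, 3.68 input tags per kb, lay below the genome-wide value of 6.39. CCDC91, a trans-Golgi trafficking gene, followed with a fold of 17.96 and 10 tags, then LOC105369698 with 15.05 and 11 tags. SLCO1A2, an organic anion transporter, had 14.9 and 9 tags, and ATF7IP, a partner of the histone methyltransferase SETDB1, had 13.53 and 9 tags. RERG, a RAS-like growth inhibitor 1739 bp away, had 12.74, LOC105369618 had 12.33 and LOC728688 had 12.29. DDX12P had 12.6, but it is a near-identical copy of DDX11, so its tags are uncertain. The exception to the low tag counts was a site in THCAT155, a noncoding gene, with a fold of 12.43 and 103 tags (84.1 to 124.9). Its summit also lay within the span of PRMT8, 1165 bp after a start of that gene. The other 9 had 8 to 15 tags each.

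The attached list held few peaks on 12p, and each of the 12 is given here. Of them, 6 overlapped a suspended peak (50%, 21.1 to 78.9, where the share over the whole attached list was 45.5%). Seen from the suspended list, 7 of 271 peaks (2.58%) overlapped an attached one, where the share over that list was 2.35%. The highest score among the 12 was at the site in THCAT155, within the span of PRMT8, an arginine methyltransferase of neurons. This site ran from 3491934 to 3493209 in the suspended and from 3492098 to 3492786 in the attached list. It held 103 suspended and 68 attached tags (52.8 to 86.2), with folds of 12.43 and 15.33, and was the single attached peak of the arm with an authors' false discovery rate (FDR) of 0%. The FDR was 20.9% at C1RL, which encodes a complement C1r-like protease, and 100% at the other 10.

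At C1RL the attached peak of 76 tags overlapped a pair of suspended peaks of 69 and 56 tags. CCND2 had 144 tags in suspended and 56 in attached cells (42.3 to 72.7), ITFG2 60 and 45, CMAS, a sialic acid activating enzyme, 53 and 38, and SLC6A13, a GABA transporter, 23 and 27. Over the 7 overlapping pairs the median ratio of depth-scaled tags, suspended to attached, was 1.36 (0.749 to 2.61), above 1 at 4 pairs, where 80.3% of pairs over the whole series were above 1. With both suspended peaks of C1RL summed (125 tags), the 6 attached peaks gave a median of 1.48 (0.866 to 2.61), above 1 at 5. The ratio was highest at CCND2, where the called peak was 2085 bp in suspended and 781 bp in attached cells. Divided by peak width, tags gave a median ratio of 0.979 (0.828 to 1.21), with 2 pairs above 1, so on 12p the direction of the tag ratio rests on peak width. Over the whole series the same median was 1.10, with 136 of 208 pairs above 1.

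The other 6 attached peaks overlapped no suspended one. The largest lay at the start of USP5, a deubiquitinase, with 74 tags (58.1 to 92.9), a fold of 5.35 and the highest attached background of the arm, 29.0 input tags per kb. The nearest suspended summit was 12967 bp away, in the last part of USP5, with 37 tags. At SLCO1A2 the attached peak of 11 tags and the suspended peak of 9 tags lay 19 bases apart, with summits 181 bp apart, so the call of an attached-only site rests on that gap. The others held 11 tags in OVOS1P, 11 near MGST1 (9662 bp away), 14 in SOX5 and 12 in FAR2, with folds of 10.22 to 21.55.

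Suspended peaks on 12p lay closer together than on 12q. The median gap between neighbouring summits was 47730 bp on 12p, against 130600 bp on 12q. Spacing and clustering follow the density of peaks that chose the arm, and nothing further is read from them. Chaining summits up to 10 kb apart gave 11 clusters of at least 3 peaks on 12p, holding 43 peaks (15.9%, 11.7 to 20.8). On 12q it gave 4, holding 12 peaks (4.29%, 2.23 to 7.37). Over all assembled chromosomes 6.4% of suspended peaks lay in such clusters. Of the 12p clusters, 8 lay in the window from 6 to 7 Mb, and without it 3 remained, at NINJ2, KCNA6 and RIMKLB. The clusters sat on the high background described above, with cluster medians of 17.4 to 36.8 input tags per kb on 12p, and its part in them was not tested.

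The largest cluster ran over 24.4 kb from ENO2, the neuronal enolase, through ATN1 to C12orf57, with 7 peaks and 675 tags in all. Its folds were low and even, from 3.78 to 5.65, on a median background of 35.2 per kb. Of its 7 peaks, 3 lay at a gene end. The next held 6 peaks and 512 tags over 17.6 kb of PLEKHG6 and TNFRSF1A, with folds of 3.96 to 7.24. The peak at 6341150 to 6342420 lay 11 bp before the start of TNFRSF1A, whose sequence is printed above, with 118 tags and a fold of 7.24. Clusters of 4 peaks each lay at GAPDH and IFFO1 (318 tags), at PTMS, the parathymosin gene (322 tags), and at GPR162 and P3H3 (143 tags). ATN1 and NINJ2, a nerve injury adhesion gene, had 7 peaks each in the gene or within 5 kb, TNFRSF1A 6 and CACNA1C, a calcium channel subunit gene, 5. NINJ2 and CACNA1C span 99.2 and 727.2 kb, while ATN1 and TNFRSF1A span 17.9 and 13.3 kb.

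**Figure D5:**
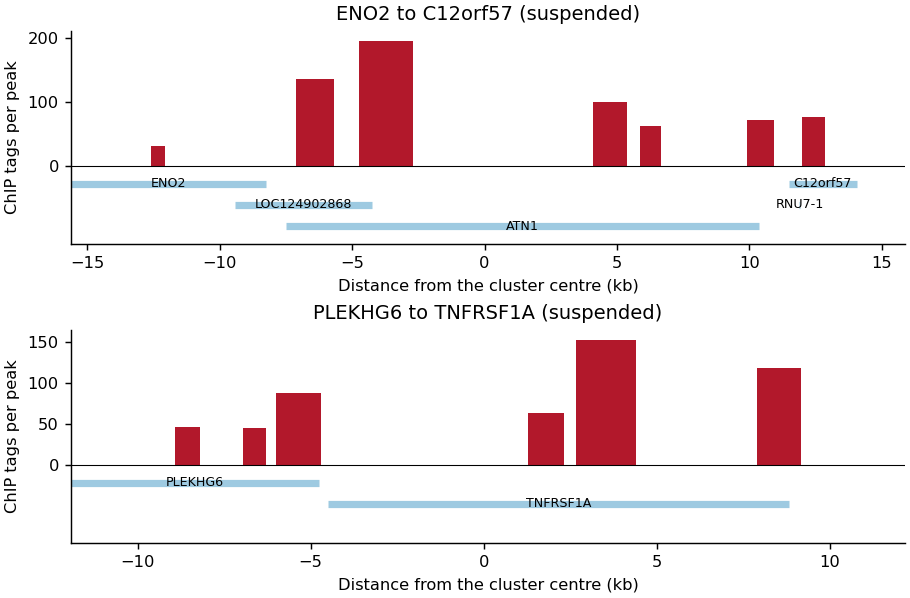
ChIP tags of each suspended peak (bar width is peak width, bar height is tags in the peak) in the clusters from ENO2 to C12orf57 and from PLEKHG6 to TNFRSF1A, against distance from the cluster centre in kb, with gene spans in blue. The tallest bar, 195 tags, lies inside ATN1 near its start, and the tallest of the second cluster, 152 tags, inside TNFRSF1A.

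Gene families of the arm differed in how many members carried suspended peaks. The lists follow the gene content of 12p but were made with earlier results of these data known, and they are described by counts. Counts of genes with a peak inside or up to 5 kb away are to be read against 50.3% of all 12p protein-coding genes, and counts at a gene end against 29.5%. Of 14 genes of the cell cycle and DNA repair, 12 had a peak inside or up to 5 kb away and 9 at a gene end. These 9 were CCND2, FOXM1, a mitotic transcription factor (125 tags), RAD52, a recombination protein, CHD4, PARP11, ING4, TIGAR, RECQL and DDX11. The FOXM1 peak is shared with RHNO1, whose end is nearer (215 bp). Tags at DDX11 are as uncertain as those at its copy DDX12P. CDKN1B, the p27 inhibitor, NCAPD2, a condensin subunit, and USP5 had one further off. The CDKN1B peak is the one at the start of APOLD1, and the NCAPD2 peak is the one before GAPDH. At RAD52 the peak at the gene end, shared with ERC1, had 40 tags, and a peak at an inner start had 125 tags and the highest score of the arm, 228.34. Of 12 transcription factor genes, 8 had a peak and 7 had one at a gene end, namely ETV6, FOXJ2, FOXM1, ZNF384, SOX5, ATN1 and PHC1. The summit counted for ATN1 lay 142 bp from its end beside C12orf57. The start of SOX5 had 12 tags at a fold of 8.46, against 130 tags at a fold of 4.10 at ETV6.

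Of 7 glycolysis genes, 5 had a peak, with GAPDH, LDHB (72 tags) and TIGAR at a gene end and ENO2 inside the gene. TPI1 held no summit, and the peaks counted for it lay in USP5 and SPSB2. Of 15 complement and immune surface genes, 11 had one, and 7 at a gene end, namely TNFRSF1A, LTBR, CD27, LAG3, CD9, C1RL and VAMP1. The summit counted for CD27 lay 103 bp before the start of TAPBPL. VAMP1 encodes a vesicle fusion protein and is no immune surface gene, and without it the counts are 10 of 14 and 6. CD163L1 had one inside the gene. PTPN6, CD4 and C1R held no summit and were counted for peaks up to 5 kb away. The peak counted for CD4 lay in GPR162, and that for C1R in C1RL. Of 5 genes of autophagy and cell death, PHB2, a mitochondrial autophagy receptor (111 tags, fold 4.10), WNK1 (107 tags, fold 7.45) and TNFRSF1A had one at a gene end, and GABARAPL1 and BCL2L14 had none. Of 13 neuronal genes, 9 had a peak, with KCNA6, GRIN2B, SOX5 and VAMP1 at a gene end. Of 11 ion channel genes, 6 had one, with KCNA6, GRIN2B and ITPR2, an intracellular calcium release channel, at a gene end. Of 25 genes from the proximal part of the arm, 14 had a peak and 7 had one at a gene end, among them FGFR1OP2 (118 tags), MRPS35, KLHL42 and PPFIBP1.

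The tissue-restricted families of the arm held few peaks. Of 26 C-type lectin and killer cell lectin receptor genes, 4 had a suspended peak (15.4%), namely KLRG1, OLR1, CLEC4A and, at a gene end, CLEC4C, a marker of plasmacytoid dendritic cells (26 tags, fold 6.34). Of 14 bitter taste receptor genes, TAS2R7 had one (14 tags, fold 8.19), and of 7 salivary proline-rich protein genes, 0 did. Gene length was not allowed for in these counts. The bitter taste receptor genes span 0.9 to 2.3 kb, so less sequence was searched for each than for a long gene. PRH1, a proline-rich protein gene without a peak, spans 290.6 kb. SLCO1A2 was the member with a peak among 4 organic anion transporter genes. Of 7 genes of the NANOG and SLC2A3 region, NANOGNB and SLC2A14 had one and none had one at a gene end. SLC2A14 and SLC2A3 are close copies, so which of them the tags belong to is uncertain. In attached cells the list members with a peak inside or up to 5 kb away were CCND2, CDCA3, USP5, C1RL, SLCO1A2, SOX5, FAR2 and PRMT8, and CDCA3 shared the peak of USP5.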

How the data were processed

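The 4 libraries comprised ChIP and input for suspended and for attached cells. Peaks were called with MACS 1.4.2 against the input at a p-value cutoff of 1e-05, per the file headers, on build hg38. Each deposited list gives per peak its width and summit in bp, a count of ChIP tags, a score (minus 10 times the log10 of the p-value), a fold enrichment (ratio) and an FDR in percent, all as computed by the authors. Peaks were called once per condition, and which aligner was used is not given here.

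From these, peaks were assigned to 12p by summit position, and density was given with exact Poisson and shares with exact binomial 95% intervals (SciPy 1.17.1, pandas 2.3.3), which cover counting error only. The local background was recovered by inverting the Poisson p-value, with attached tags scaled to the smaller library. It came out as a whole number of input tags in the peak, in 1 kb or in 10 kb, or as the genome-wide value, within 0.02 tags for 90.8% of suspended and 100.0% of attached 12p peaks. At 5 short 12p peaks the deposited score may rest on a width other than the one listed. The inversion was tested on simulated data. Gene positions and promoter windows (23 chromosomes) came from RefSeq tables of GRCh38.p14. A gene end is either end of the annotated span, and its margin was 1 kb.

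Genes were named by rule: all attached 12p peaks, the 10 suspended peaks of highest fold and of most tags, the densest windows, the 5 largest clusters, and the members of 13 gene lists with a peak at a gene end plus up to 4 others each. The arm and the lists were chosen with earlier results of these data known. No comparison between conditions was tested. Alternatives were the FDR, score, fold, boundary, margin, overlap and chaining distance.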

Additional observations from a re-analysis of the deposited data

How the results depend on the processing

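No paired analysis was possible because each group had 1 library. Alternatives by fold, by background, with summed peaks and without the densest window were chosen after seeing the data. The ratio of 12p to 12q density, 2.66 in suspended cells, was 0.484 at a fold of at least 10 (reversed). It was 2.0 for peaks on a background of 10 to 20 input tags per kb, counted over the whole arm. Without the window from 6 to 7 Mb it was 2.19, and in the upper scores 3.18. It lay between 2.47 and 2.86 with an FDR of at most 5%, another boundary or another denominator. The gene-end share of 38.4% was 50% in the upper scores, 15.4% at a fold of at least 10, 28.8% within 500 bp and 47.2% within 2 kb. The tag ratio of 1.36 at overlapping sites was 0.979 per bp of peak, below 1, and 1.48 with the suspended peaks under 1 attached peak summed. The 11 clusters became 4 in the upper scores, 6 chained at 5 kb, 18 at 25 kb and 3 without the densest window. The 145 genes with a peak became 13 at a fold of at least 10. The causes were not tested. The ratio of median backgrounds, 2.17, lay between 1.84 and 2.06 under its alternatives. An FDR of at most 5% left no attached 12q peak and so no attached ratio. Otherwise the attached ratio of 3.67 lay between 2.06 and 4.05, within its interval.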
